A study of Mus musculus with 12 samples.

Results

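Kidneys of mice in which the receptor for granulocyte colony-stimulating factor (the G-CSFR) had been blocked by antibody ahead of ischaemia-reperfusion injury (IRI) were compared with kidneys of sham-operated mice. The comparison took 6 of the 12 RNA sequencing libraries of the study, chosen by their labels: 3 kidneys labelled IRI anti-G-CSFR mAb (kidneys 7, 8 and 9) and 3 labelled Sham (kidneys 1, 2 and 3), each from a different mouse. All mice were male C57BL/6, and each library came from a saline-perfused whole kidney with all of its cells. The IRI was unilateral and warm, the antibody (labelled VR81) was given 24 h before it, and the tissue was taken 24 h after IRI or sham surgery. The sham mice are not labelled as having received any antibody, so the antibody and the IRI cannot be told apart in this comparison. The labels do not say which of the mouse's kidneys was sequenced. Below, the term operated kidneys stands for the anti-G-CSFR kidneys 7, 8 and 9 alone, although the sham mice had surgery too. Values of 3 kidneys from mice with IRI and an isotype control antibody (kidneys 4, 5 and 6) are given beside some results. They help to place a level. The remaining 3 libraries, from mice with IRI and an anti-C5 antibody, entered the estimate of spread. A few of their values are also given.

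Renal ischaemia interrupts blood flow, and the return of flow injures the epithelium of the tubule, above all its proximal segment; injured cells lose transporters and metabolic enzymes and switch on stress genes such as Havcr1, Lcn2 and Krt20. Neutrophils enter the reperfused tissue early. G-CSF, acting through its receptor, the product of Csf3r, drives the production of neutrophils and their release from bone marrow. The comparison with sham asks how far the kidney of a mouse with IRI under receptor blockade still differs from that of a sham-operated mouse. It covers both injury genes and the leukocyte transcripts of a resting kidney.

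The deposited table held 13124 genes, and total counts of the 6 libraries ranged from 13200930 to 16268334. Levels are given as CPM (reads of a gene scaled to a common library size, with TMM factors), and changes as the fitted log2 ratio of anti-G-CSFR IRI to sham with its standard error (SE), from edgeR's quasi-likelihood test with Benjamini-Hochberg adjustment over all genes. Kidney markers were abundant in all 6 kidneys: the lowest level of Slc34a1, the phosphate transporter of the proximal tubule, was 2870 CPM, and that of Umod, made in the thick ascending limb, was 4124 CPM. Csf3r itself (chromosome 4, 126024550 to 126044440, GRCm38) was low in both groups, and its level does not check an antibody that blocks the protein. One kidney stood apart. Among 12619 genes with a mean log2 CPM of at least 1 over the 6 kidneys, 44 were more than 2-fold higher in kidney 9 than in each of the other 5 kidneys, against 1 or 2 such genes in every other kidney. In the other direction, 14 genes were more than 2-fold lower in kidney 9 than in each of the other 5, against 12 in kidney 7 and 1 to 4 in the others. List medians and log2 changes that turn sign or move by more than 1.5-fold without kidney 9 are therefore given both ways.

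No gene passed an adjusted p of 0.05 in either direction among the 13124 tested (0% called), and the smallest adjusted p was 0.8. At an unadjusted p below 0.05 there were 778 genes (5.93%), of which 506 were higher and 272 lower in the anti-G-CSFR kidneys. The 3 anti-G-CSFR kidneys all lay above the 3 sham kidneys in 1243 genes (9.47%) and all lay below them in 1168 (8.9%). The median log2 change over all genes was -0.01 (95% of genes between -0.38 and 0.59), and the typical 95% confidence interval reached 0.34 to either side of the estimate. For 11808 genes, 90% of those tested, that interval lay wholly within a 2-fold change in either direction. For the other genes a 2-fold difference is inside the interval, so the absence of a call does not show that those levels were alike. In the same fit, 8241 genes (62.8%) were called between isotype IRI and sham kidneys, and the median size of the log2 change without regard to sign was 0.51 there and 0.12 in the anti-G-CSFR comparison. The contrasts share the sham kidneys.

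The number of calls differed between tools and sets of libraries. DESeq2, which gave an adjusted p to 2178 genes, called 9 genes (0.413%), all higher in the anti-G-CSFR kidneys: Rps28, Rps20, Rps24 and Rpl38, which encode ribosomal proteins, Eef1b2, a translation elongation factor subunit, Tpt1, Gstm5, Spag9 and the mitochondrial ribosomal RNA mt-Rnr1 (named after their values were seen). Fitted on the 6 libraries alone, edgeR called 41 genes higher (0.314%) and 2 lower (0.0153%), the latter being S100a9 and Lpin1. limma-voom called 0 (771 at an unadjusted p below 0.05), and limma-voom with sample weights called 256 higher (1.95%) and 49 lower (0.373%). Leaving out kidney 9 left 0 genes called and 944 at an unadjusted p below 0.05 by edgeR. Without kidney 9 and the anti-C5 kidney 11, these numbers were 0 and 1309.

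**Figure D1:**
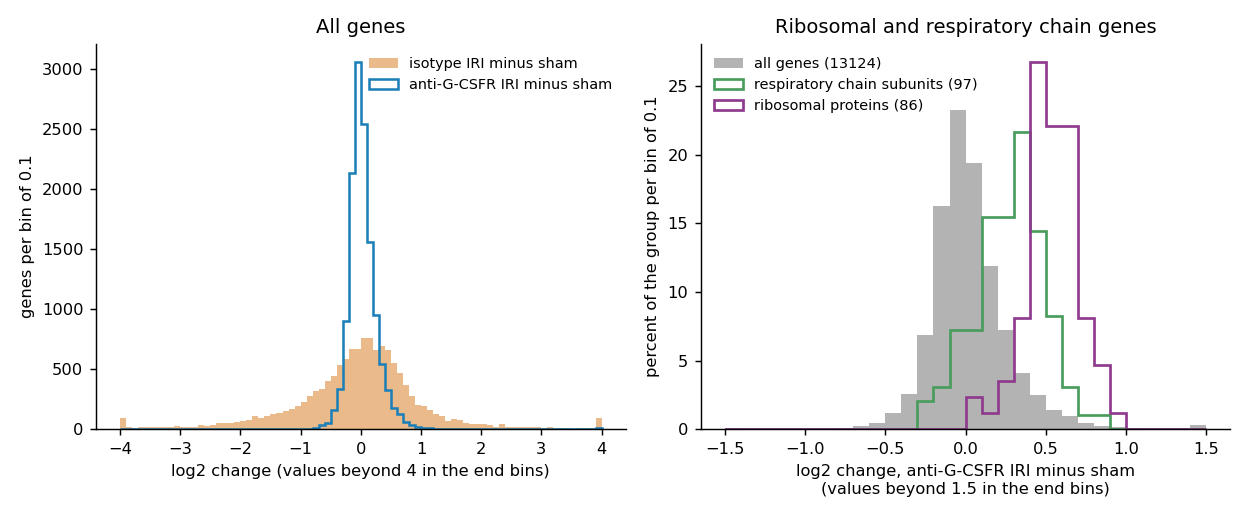
Left, histogram of fitted log2 changes against sham over all 13124 genes for isotype IRI (filled) and anti-G-CSFR IRI (outline), in genes per bin of 0.1. Right, the anti-G-CSFR changes of 86 ribosomal protein genes and 97 respiratory chain genes as a percentage of each group per bin, over those of all genes; the ribosomal genes all lie above 0 and have a median of 0.55.

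Transcripts of injured tubule were low beside those of isotype IRI kidneys, but several stood above sham, most of all in kidney 9. Of 38 listed tubule injury genes 37 were measured and none was called, 29 had a positive and 8 a negative estimate, and 8 of the 37 were higher in all 3 anti-G-CSFR kidneys than in all 3 sham kidneys (9.47% of all genes). The median log2 change of the 37 was 0.40, and 0.07 without kidney 9. Taken over the list, the mean log2 level relative to sham was -0.01 in kidney 7, 0.27 in kidney 8 and 1.58 in kidney 9, while the sham kidneys lay between -0.08 and 0.11. The listed genes thus placed the 3 operated kidneys in a graded order, with kidney 7 inside the sham range.

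Havcr1 (chromosome 11, 46735080 to 46779578), which encodes kidney injury molecule 1 on the surface of injured proximal tubule cells, was at 3.35, 14.3 and 3.08 CPM in sham kidneys 1, 2 and 3 and at 17.2, 44.3 and 345 CPM in anti-G-CSFR kidneys 7, 8 and 9. The groups did not overlap, although sham kidney 2 and operated kidney 7 were close. The log2 change was 4.29 (SE 1.71, 95% interval 0.53 to 8.04), with an unadjusted p of 0.0289 and an adjusted p of 0.807 by edgeR, and 2.16 without kidney 9. The isotype IRI kidneys held 5672, 3090 and 3032 CPM. Krt20, a keratin switched on in stressed tubule epithelium, was at 1.61, 0.779 and 0.753 CPM in sham and 1.92, 2.76 and 14.3 CPM in anti-G-CSFR kidneys. Again each operated kidney exceeded each sham kidney, but the step from kidney 8 to kidney 9 was larger than that from sham to kidney 8 (log2 change 2.57, SE 1.71, adjusted p 0.827 by edgeR, and 1.16 without kidney 9). Isotype IRI kidneys had 607, 1258 and 1331 CPM.

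Lcn2, the gene of lipocalin 2 (NGAL), which sequesters bacterial iron carriers, gave a different picture. It was at 13.7, 16.5 and 14.6 CPM in sham and at 14.3, 10.8 and 155 CPM in kidneys 7, 8 and 9, so that kidneys 7 and 8 lay among or below the sham kidneys and kidney 9 alone was high. Its log2 change was 2.00 (SE 1.23, adjusted p 0.82 by edgeR) and turned to -0.23 without kidney 9. Spp1, the secreted matrix protein osteopontin, was at 1065, 1903 and 1089 CPM in sham and 1335, 1568 and 10424 CPM in the anti-G-CSFR kidneys. Clu, the extracellular chaperone clusterin, was at 263, 338 and 250 and 256, 316 and 1011 CPM. Both followed the pattern of Lcn2, with kidneys 7 and 8 within the sham range and kidney 9 above it. Without kidney 9 their log2 changes were 0.12 for Spp1 and 0.03 for Clu.

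A smaller set of injury-list genes was above sham in every operated kidney. S100a6, a small calcium-binding protein, was at 18.8, 16.7 and 21 CPM in sham and 21.5, 34.5 and 65.7 CPM in the anti-G-CSFR kidneys (log2 change 1.11, and 0.59 without kidney 9). Lgals3, which encodes galectin-3, was at 30.5, 28.9 and 33.4 and 42, 42.8 and 70.3 CPM (0.74, and 0.47 without kidney 9). S100a10, S100a11, Tpm1 and the membrane protease gene Adam8 were the others besides Havcr1 and Krt20, with log2 changes of 0.38, 0.40, 0.17 and 2.03; without kidney 9 that of S100a11 was 0.24 and that of Tpm1 0.07. Adam8 rested on 8, 17 and 25 counts in kidneys 7, 8 and 9. Not every injury gene was high even in kidney 9. Cryab, a small heat shock protein, was at 142, 183 and 167 CPM in kidneys 7 to 9 and 132, 188 and 172 CPM in sham, against a mean of 610 CPM in isotype IRI, and Anxa1 and Itgb6 also stayed within or below the sham range in kidney 9. Sprr2f, a cornified-envelope protein gene, had 0 counts in all 3 sham kidneys and in kidneys 7 and 8 and 28 counts in kidney 9. Set against a floor of 3 counts over the sham group, that is at least 9.95-fold higher over the anti-G-CSFR group, all of it from kidney 9. Fosl1, an AP-1 subunit with 0 counts in sham, was at least 8.17-fold higher by the same rule, with 21 of its 23 counts in kidney 9.

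**Figure D2:**
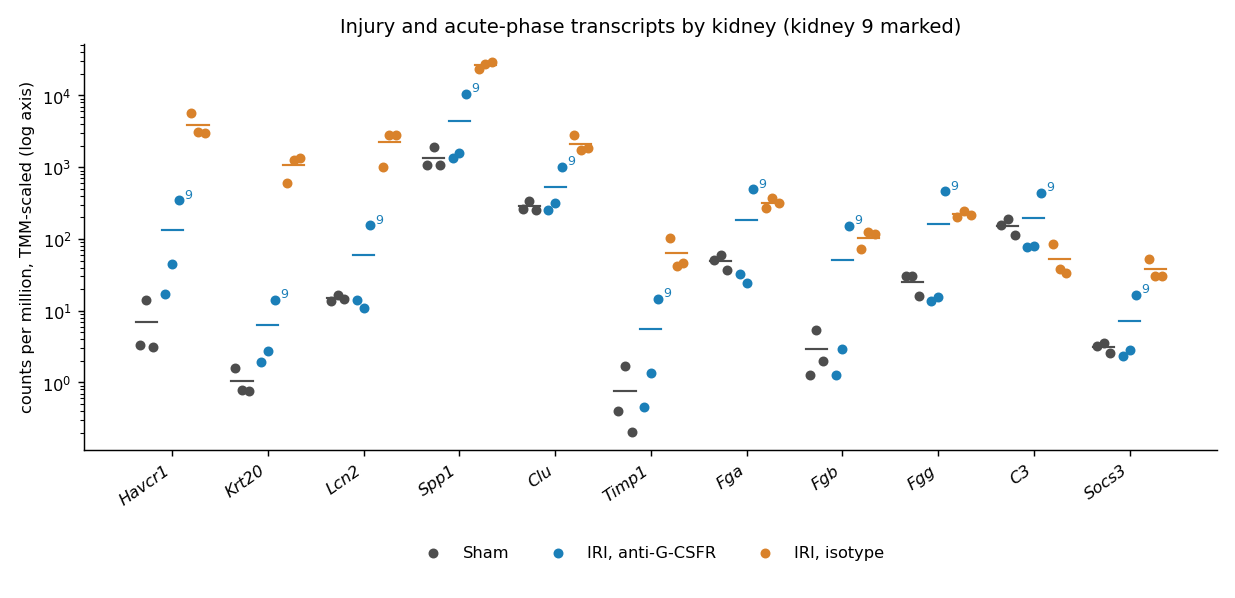
Level of injury and acute-phase transcripts (TMM-scaled CPM, log axis) in each sham, anti-G-CSFR IRI and isotype IRI kidney, with short lines at group means and kidney 9 marked. Havcr1 in kidney 9 (345 CPM) lies between sham and isotype IRI, whereas Fga, Fgb and Fgg in kidney 9 exceed all 3 isotype IRI kidneys.

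Beyond the tubule injury genes, kidney 9 carried high levels of acute-phase and cytokine-response transcripts. It had 44 genes more than 2-fold above the other 5 kidneys. Of these, 37 were called higher in isotype IRI than in sham by edgeR (32.1% of all genes). Both choices rest on the same 3 sham kidneys, so this overlap is a description and not a result. Among the 44 genes, 12 were above all 3 isotype IRI kidneys as well. Those 12 were the fibrinogen genes Fga, Fgb and Fgg, the complement genes C3, C4b and Cfd, the chemokine Cxcl10, the lipid droplet gene Cidec, Lrg1, Serpina10, Gnao1 and Tnfsf13b. Cfd and Cidec are made by fat cells, and Cidec is itself on the adipose list. The mean of the adipose list relative to sham, on the log2 scale, was -2.57 in kidney 7, 0.50 in kidney 8 and 0.83 in kidney 9. That of the urothelial list was -0.06, 0.60 and 1.05 in the same kidneys. The part of either tissue in these levels was not tested. The IL-6 family and STAT3 list (23 genes, 19 measured, 0 called) had a mean log2 level relative to sham of -0.38 in kidney 7, -0.08 in kidney 8 and 1.54 in kidney 9, with 7 of its genes among the 44. Its median log2 change was 0.28 and turned to -0.22 without kidney 9.

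Fga, Fgb and Fgg encode the 3 chains of fibrinogen, the clotting protein, and are textbook acute-phase genes that respond to IL-6 through STAT3. They lie side by side on chromosome 3. Fga was at 51.4, 60.7 and 36.6 CPM in sham and at 32.1, 24.6 and 491 CPM in kidneys 7, 8 and 9. Fgb was at 1.27, 5.39 and 1.99 CPM in sham and 1.26, 2.91 and 151 CPM in the anti-G-CSFR kidneys. Fgg was at 30, 30.3 and 16.2 and 13.5, 15.4 and 461 CPM. In all 3 genes kidney 9 was far above the other 5 kidneys, and for Fga and Fgg kidneys 7 and 8 lay below every sham kidney. Isotype IRI kidneys held 273, 371 and 319 CPM of Fga, 71.4, 125 and 117 CPM of Fgb and 200, 249 and 214 CPM of Fgg. The log2 changes against sham were 1.88 (SE 0.951) for Fga, 4.15 (SE 1.59) for Fgb and 2.68 (SE 1.2) for Fgg, each with an adjusted p of 0.807 by edgeR, and turned to -0.79, -0.48 and -0.81 without kidney 9.

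Because the 3 genes are neighbours that were high together in 1 kidney, their RefSeq promoter windows (GRCm38.p6, 250 bases before to 50 after the start, each printed 5′ to 3′ on the strand of its gene) are shown. Capitals mark matches to TTCNNNGAA, the palindromic letters bound by STAT dimers, and to CTGGGAA, the core of the IL-6 response element of acute-phase genes, with both strands searched. The windows are chr3:83025903-83026202 on the plus strand for Fga, chr3:83049814-83050113 on the minus strand for Fgb and chr3:83007474-83007773 on the plus strand for Fgg.
Fga: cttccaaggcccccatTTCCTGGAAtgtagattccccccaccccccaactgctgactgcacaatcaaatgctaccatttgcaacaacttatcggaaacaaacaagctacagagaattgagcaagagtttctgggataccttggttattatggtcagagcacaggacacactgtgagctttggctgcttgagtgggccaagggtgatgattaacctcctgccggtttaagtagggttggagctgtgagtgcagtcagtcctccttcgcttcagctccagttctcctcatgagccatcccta
Fgb: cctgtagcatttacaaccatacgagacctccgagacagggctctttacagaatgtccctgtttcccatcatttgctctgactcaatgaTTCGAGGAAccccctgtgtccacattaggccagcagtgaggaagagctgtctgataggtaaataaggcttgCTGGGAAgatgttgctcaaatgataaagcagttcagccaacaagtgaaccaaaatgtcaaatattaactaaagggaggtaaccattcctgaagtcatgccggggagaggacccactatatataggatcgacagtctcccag
Fgg: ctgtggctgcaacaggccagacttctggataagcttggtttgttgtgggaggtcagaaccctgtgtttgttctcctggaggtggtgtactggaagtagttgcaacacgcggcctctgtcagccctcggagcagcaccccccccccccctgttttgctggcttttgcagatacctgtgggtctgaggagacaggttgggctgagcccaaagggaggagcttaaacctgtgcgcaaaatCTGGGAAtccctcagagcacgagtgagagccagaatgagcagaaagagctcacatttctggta
Fga held 1 match to TTCNNNGAA, Fgg 1 match to CTGGGAA, and Fgb 1 of each. TTCNNNGAA occurs in 8.3% of the 32851 RefSeq promoter windows of this length and CTGGGAA in 11.1%, and the motifs can overlap. A match is a description of the letters and not a measured binding site.

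Other members of these lists were also highest in kidney 9. Lif, an IL-6 family cytokine, was at 0.201, 0.649 and 0.205 CPM in sham and 0.991, 0.373 and 12.2 CPM in the anti-G-CSFR kidneys, and its log2 change of 3.62 (SE 1.68) was 0.97 without kidney 9. Socs3, the feedback inhibitor induced by STAT3, was at 3.22, 3.5 and 2.6 and 2.31, 2.83 and 16.7 CPM. C3, the central complement component, was at 159, 187 and 112 CPM in sham, 77.9, 79.4 and 439 CPM in the anti-G-CSFR kidneys and 85.5, 37.6 and 34.1 CPM in isotype IRI, so kidneys 7 and 8 were below sham and kidney 9 was above every sham and isotype IRI kidney. Il1rn, the interleukin-1 receptor antagonist, was at 0.268, 0.0649 and 0.137 and 0.264, 0.373 and 4.54 CPM, and Timp1, a metalloproteinase inhibitor, at 0.402, 1.69 and 0.205 and 0.462, 1.34 and 14.7 CPM. The chemokine and cytokine list (35 genes, 20 measured, 0 called) had list means of 0.14, 0.10 and 1.31 in kidneys 7, 8 and 9. In it Cxcl1, a neutrophil-attracting chemokine, was at 0.402, 0.843 and 0.548 CPM in sham and 1.19, 1.12 and 5.37 CPM in the anti-G-CSFR kidneys, without overlap. Csf3, the gene of G-CSF, and Il6 have no row in the table and were not analysed here. The matrix list had means of -0.42, -0.26 and 0.44, and the immediate early list -0.03, -0.07 and 0.77. Kidney 9 was thus the highest of the 3 in each of these lists.

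**Figure D3:**
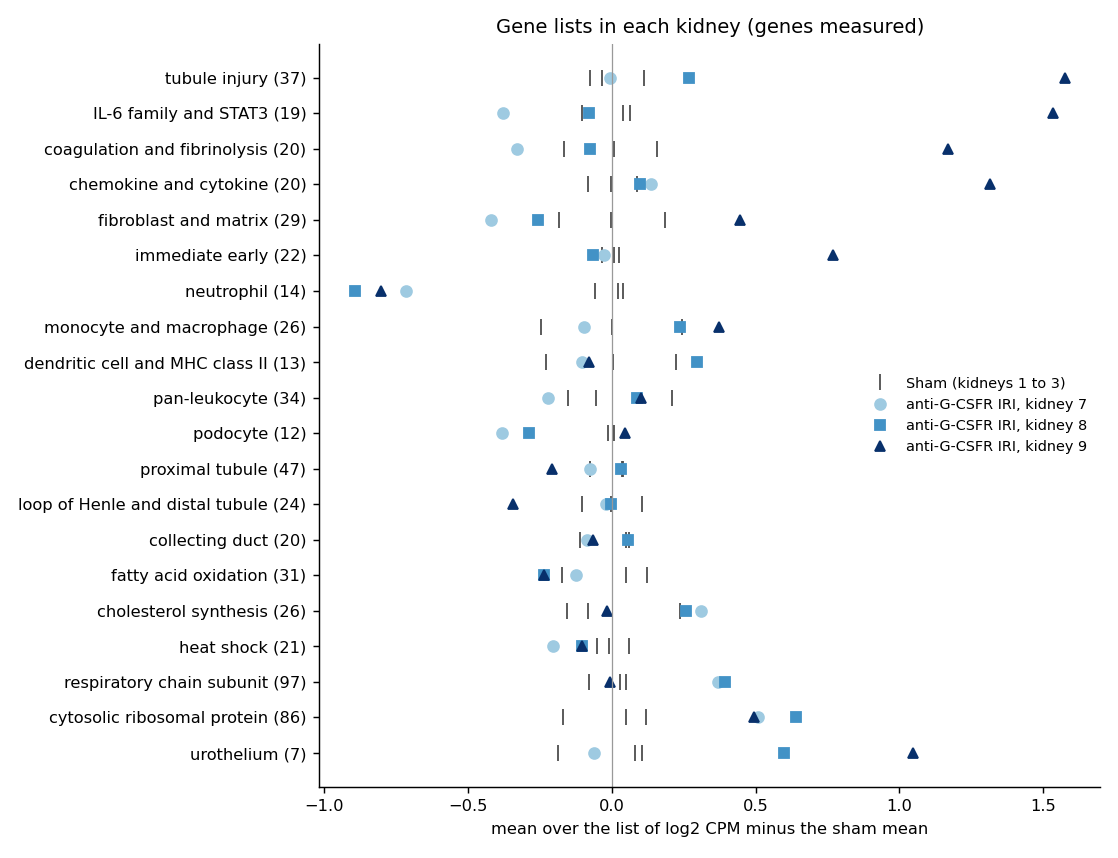
Mean over each gene list of log2 CPM minus the sham mean, for the 3 sham kidneys (ticks) and anti-G-CSFR kidneys 7, 8 and 9 (symbols), with the number of genes measured. Kidney 9 lies at 1.58 for tubule injury and 1.54 for the IL-6 family and STAT3 list, while all 3 anti-G-CSFR kidneys lie below sham for neutrophil genes and above sham for ribosomal protein genes.

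Genes of the differentiated tubule had mostly small negative estimates against sham. All 47 proximal tubule genes on the list were measured, with 0 called, 13 positive and 34 negative estimates and a median log2 change of -0.12 (-0.04 without kidney 9), against -2.19 in isotype IRI. In 11 of the 47 all 3 operated kidneys were below all sham kidneys (8.9% of all genes), and in 0 above. The 24 loop of Henle and distal tubule genes had a median of -0.06, which turned to 0.04 without kidney 9 (isotype IRI -1.91), with 4 below sham in all 3 kidneys and 0 above. The 20 collecting duct genes had a median of -0.07, and -0.02 without kidney 9 (isotype IRI -0.50), with 1 below and 1 above. None of these genes was called. The list means of kidney 9 were -0.21 for the proximal tubule and -0.35 for the loop and distal tubule, below every sham kidney, while kidneys 7 and 8 lay within or at the edge of the sham range.

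Some tubule genes were lower in every operated kidney. Pck1, the enzyme that commits the proximal tubule to gluconeogenesis, was at 7551, 5271 and 5395 CPM in sham and 4632, 3417 and 2771 CPM in the anti-G-CSFR kidneys, without overlap (log2 change -0.75, SE 0.295, 95% interval -1.39 to -0.11, adjusted p 0.807 by edgeR). Egf, the growth factor made in the distal tubule, was at 1584, 1817 and 1576 and 1277, 1085 and 690 CPM (log2 change -0.71, SE 0.411), and Slc12a1, the salt transporter of the thick ascending limb, at 1602, 1518 and 1587 and 1425, 1224 and 807 CPM (-0.45, SE 0.243, and -0.23 without kidney 9). Casr, the calcium-sensing receptor, was at 123, 124 and 119 and 101, 98.4 and 91.1 CPM (-0.34, SE 0.133). In Egf, Slc12a1 and Casr the groups did not overlap and kidney 9 was the lowest of the 6. In isotype IRI the log2 changes against sham were -3.85 for Pck1, -4.72 for Egf, -3.95 for Slc12a1 and -2.02 for Casr. Atp6v1g3, a proton pump subunit of intercalated cells, went the other way, at 35.2, 50.4 and 42.4 CPM in sham and 51.1, 74.7 and 63.2 CPM in the anti-G-CSFR kidneys (0.56, SE 0.173, adjusted p 0.8 by edgeR).

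Cyp51, an enzyme of sterol synthesis, was at 315, 386 and 337 CPM in sham and 234, 234 and 153 CPM in the anti-G-CSFR kidneys, all 3 of them lower (log2 change -0.74, SE 0.223, adjusted p 0.8 by edgeR). The rest of the cholesterol synthesis list did not share that direction: of 26 measured genes 22 were positive and 4 negative, with a median of 0.13 (0.21 without kidney 9). Msmo1 acts later in the pathway than Cyp51. It was at 31.5, 28.7 and 61 CPM in sham and 74.6, 71.7 and 49.3 CPM in operated kidneys, with sham kidney 3 among the latter. Fatty acid oxidation genes had mostly negative estimates, 27 of 31 measured, with a median of -0.19 (isotype IRI -1.07), and 7 of the 31 were below sham in all 3 kidneys (8.9% of all genes). Among 21 heat shock genes 18 were negative with a median of -0.18, 9 of the 21 below sham in all 3 kidneys against that same 8.9%, and Hsph1 was at 212, 179 and 195 and 137, 166 and 149 CPM (-0.38, SE 0.164). The exception above sham in all 3 kidneys was Hspe1, the mitochondrial co-chaperonin, at 177, 222 and 221 and 303, 345 and 240 CPM. None of these 3 lists had a called member.

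Podocyte genes, which mark the filtering cells of the glomerulus, had 9 negative and 3 positive estimates among 12 measured, with 0 called. Their median was -0.18, and -0.40 without kidney 9. Against the same sham kidneys the isotype IRI median was -0.31. In anti-C5 IRI 1 of the 12 estimates was positive. Wt1, a transcription factor that podocytes require, was at 10.7, 9.73 and 9.59 CPM in sham and 4.95, 6.64 and 6.73 CPM in the anti-G-CSFR kidneys (log2 change -0.72, SE 0.178, 95% interval -1.10 to -0.33, unadjusted p 0.00174, adjusted p 0.8 by edgeR). The log2 change of Wt1 against sham was 0.02 in isotype IRI and -0.60 in anti-C5 IRI. Cdkn1c, a cell cycle inhibitor gene, was at 15.5, 17.4 and 20.2 and 12.4, 12.2 and 14.4 CPM (-0.45, SE 0.161). In 4 of the 12, Wt1, Cdkn1c and Podxl among them, all 3 operated kidneys were below all sham kidneys (8.9% of all genes). List means were -0.38 in kidney 7, -0.29 in kidney 8 and 0.05 in kidney 9, so here the kidney with the most injury transcripts was the one nearest sham. In RNA from whole kidney, fewer cells of a type and less RNA per cell cannot be told apart.

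Neutrophil transcripts were below sham in all 3 operated kidneys. Of 36 listed genes 14 were measured and 22, among them Ly6g, Mpo and Elane, have no row. The table holds genes whose third-highest CPM over the 12 libraries was at least 2.01, and several of the 14 reach that only in the other IRI groups. None was called, 12 had a negative and 2 a positive estimate, 8 of the 14 were lower in all 3 anti-G-CSFR kidneys than in all 3 sham kidneys (8.9% of all genes), and 0 were higher. The median log2 change was -1.2 (-0.01 over all genes), and -1.26 without kidney 9. List means were -0.72, -0.89 and -0.80 in kidneys 7, 8 and 9, against -0.06 to 0.04 in sham kidneys. Summed over the 13 genes other than G0s2, they reached 14 to 15.1 CPM in sham, 7.13 to 8.47 CPM in anti-G-CSFR and 63.2 to 157 CPM in isotype IRI kidneys.

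S100a8 and S100a9 (chromosome 3, 90668978 to 90670035 and 90692632 to 90695721) encode the subunits of calprotectin, the main cytosolic protein of neutrophils. S100a9 was at 4.29, 3.76 and 3.22 CPM in sham and 0.859, 0.895 and 0.832 CPM in the anti-G-CSFR kidneys, where it rested on 13, 12 and 11 counts against 64, 58 and 47 in sham. S100a8 was at 2.75, 1.69 and 1.71 CPM in sham and 0.727, 0.224 and 0.151 CPM in the anti-G-CSFR kidneys. The operated kidneys were all lower and close to each other in S100a9. The log2 changes were -2.11 (SE 1.07, 95% interval -4.46 to 0.23, unadjusted p 0.0732, adjusted p 0.807 by edgeR) for S100a9 and -2.40 (SE 1.35, adjusted p 0.814) for S100a8. In the fit of the 6 libraries alone, S100a9 was called by edgeR (log2 change -2.11). Isotype IRI kidneys held 35.7, 11.1 and 37 CPM of S100a9.

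Csf3r, the receptor gene, was at 1.07, 1.82 and 1.58 CPM in sham and 0.859, 0.224 and 1.06 CPM in the anti-G-CSFR kidneys (log2 change -1.05, SE 1.06, 95% interval -3.36 to 1.26, adjusted p 0.897 by edgeR). The groups were separate by a narrow gap, with kidney 9 just under sham kidney 1. Isotype IRI kidneys held 14.4, 6.88 and 12.8 CPM. Retnlg was at 0.938, 0.714 and 0.411 CPM in sham and 0.132, 0.224 and 0.151 CPM in operated kidneys, and Cxcr2, the chemokine receptor that brings neutrophils into tissue, at 0.469, 0.519 and 0.342 and 0.132, 0.0746 and 0 CPM. Both were lower in every operated kidney, on at most 3 counts each in kidneys 7, 8 and 9. Mmp9, Clec4d and Hdc were the other genes of the list without overlap. Clec4e and Trem1 had at most 3 counts per group. G0s2, Wfdc17, Fcgr4 and Il1r2 overlapped, with log2 changes of -0.15, 0.22, -0.11 and -0.37 (0.13, 0.02 and -0.02 without kidney 9 for the first 3), and G0s2 is also expressed outside neutrophils.

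**Figure D4:**
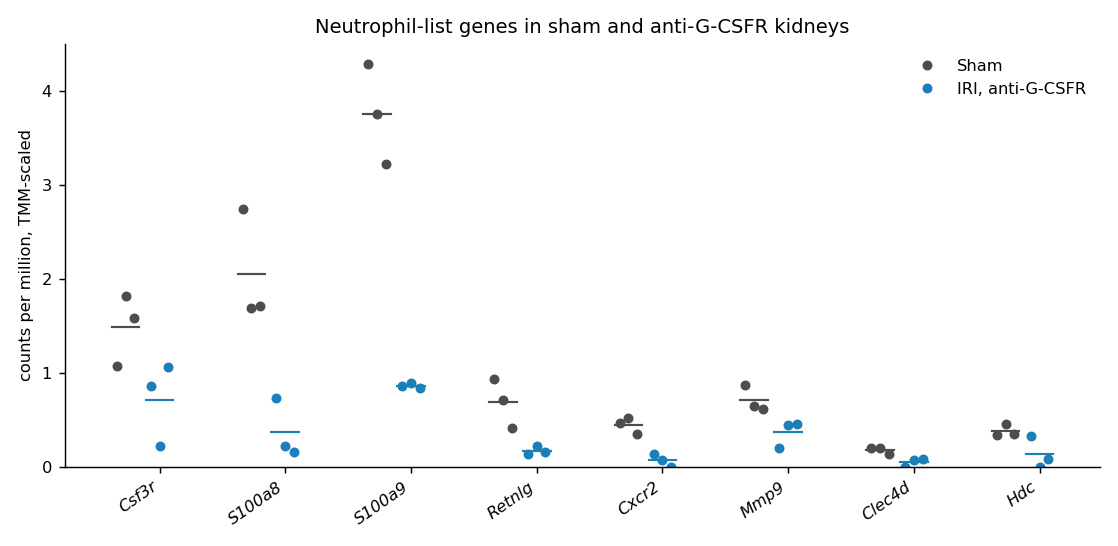
Level (TMM-scaled CPM) of 8 neutrophil-list genes in the 3 sham and 3 anti-G-CSFR IRI kidneys, with lines at group means. Shown are the 8 of 14 measured genes whose groups do not overlap, and the other measured genes are left out. By that choice the anti-G-CSFR kidneys lie below the sham kidneys in each gene, most widely for S100a9 (0.832 to 0.895 against 3.22 to 4.29 CPM).

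Lists of other leukocytes were mixed in direction. Over 34 measured genes expressed by most leukocytes, 17 estimates were positive and 17 negative, the median was -0.01 (-0.02 without kidney 9) and 0 were called. Among 26 measured monocyte and macrophage genes the median was 0.12, with 17 positive, 9 negative and 0 called. Cd68, a lysosomal protein of macrophages, was at 3.22, 4.61 and 3.56 CPM in sham and 4.62, 6.12 and 7.34 CPM in the anti-G-CSFR kidneys (log2 change 0.66, SE 0.292, adjusted p 0.807 by edgeR), the operated kidneys being higher by a narrow margin between sham kidney 2 and kidney 7. Plac8 was at 9.65, 17.3 and 12.3 and 17.1, 22.2 and 35 CPM (0.92, SE 0.323, and 0.60 without kidney 9), with kidney 7 inside the sham range. Resident macrophage genes such as Adgre1 (0.09), Csf1r (-0.20) and Cx3cr1 (-0.04) had small estimates; without kidney 9 those of Csf1r and Cx3cr1 were -0.08 and -0.26. C5ar1, the receptor of C5a, was at 1.21, 1.17 and 2.19 and 1.06, 2.16 and 3.48 CPM (0.54, SE 0.627, and 0.09 without kidney 9), with overlap.

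The 13 measured genes of dendritic cells and MHC class II had a median of 0.04 (isotype IRI -1.19) and 0 called, and the operated kidneys lay at -0.10, 0.30 and -0.08. Of lymphocyte genes few were measured. The 4 B cell and plasma cell genes (Ighm, Igkc, Igha and Jchain, of 14 listed) all had negative estimates, with a median of -0.45. All 4 overlapped between the groups: Igha was at 4.29, 13.9 and 9.11 CPM in sham and 4.03, 6.49 and 6.96 CPM in the operated kidneys. Of 22 T cell genes only Tcf7 was measured (-0.14, and -0.22 without kidney 9), and of 13 NK and 8 mast cell genes 0. Gmfg, expressed in leukocytes, was at 5.36, 5.51 and 4.73 and 9.38, 9.1 and 6.73 CPM (0.69, SE 0.214, adjusted p 0.8 by edgeR), higher in all 3 operated kidneys.

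The most uniform group shift was in cytosolic ribosomal protein genes. All 86 measured (paralogues such as Rpl3l included) had a positive estimate, 83 were above sham in all 3 operated kidneys (9.47% of all genes), and 81 had an unadjusted p below 0.05 (3.86% of all genes in that direction), with 0 called. The median log2 change was 0.55 (range 0.01 to 0.98) and stayed between 0.54 and 0.55 with library totals, RLE or upper-quartile scaling. List means were 0.51, 0.64 and 0.50 in kidneys 7, 8 and 9, against -0.17 to 0.12 in sham. The other IRI groups shared the direction against the same sham kidneys. In isotype IRI the median log2 change was 0.64. In anti-C5 IRI all 86 estimates were positive, with list means of 0.24, 0.60 and 0.72. The 86 genes took up 1.7% to 2.07% of all counts in sham, 2.6% to 2.91% in anti-G-CSFR and 2.94% to 4.37% in isotype IRI kidneys. Many ribosomal protein genes have near-identical processed pseudogenes, so counts of single members are uncertain. DESeq2 called 4 of them higher, against 0.413% of the 2178 genes to which it gave an adjusted p. edgeR on the 6 libraries alone called 23 higher (0.314% of all genes tested). With limma-voom and sample weights 73 were called higher (1.95% of all genes).

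Rps12, a protein of the small subunit, had the largest change, at 184, 258 and 234 CPM in sham and 374, 495 and 466 CPM in the anti-G-CSFR kidneys (log2 change 0.98, SE 0.282, 95% interval 0.37 to 1.60, adjusted p 0.8 by edgeR). Rps28 was at 79.2, 89.5 and 92.8 and 130, 141 and 148 CPM (0.68, SE 0.152) and Rps20 at 136, 163 and 159 and 223, 261 and 246 CPM (0.68, SE 0.160). The gap between the groups exceeded the range within either group for Rps28. Transcript length moved with the change over all genes. In the eighth of genes with the shortest median transcript (up to 680 nt), the 1557 genes that are not ribosomal had a median log2 change of 0.05 and 16.4% lay above sham in all 3 kidneys. In the eighth with the longest (3325 nt or more) the median was -0.08 and the share 2.25%. The ribosomal genes have a median length of 630 nt. In the shortest eighth, 257 other genes above a lower limit on abundance had a median of 0.03. That limit was set near the low end of the ribosomal genes, with no upper limit, so abundance was not matched. The part of length, or of RNA quality, which the labels do not give per kidney, in the ribosomal shift was not tested.

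Nuclear genes of the respiratory chain, the mitochondrial machinery of ATP synthesis, showed a smaller shift. Their list mean was close to sham in kidney 9. The list was drawn by the first letters of the symbol, so it can include assembly factors as well as subunits. Of 97 measured genes 85 were positive, 12 negative and 0 called, with a median of 0.30 (isotype IRI -0.86). List means were 0.37 in kidney 7, 0.39 in kidney 8 and -0.01 in kidney 9, and 25 of the 97 were above sham in all 3 kidneys, kidney 9 included (9.47% of all genes). Ndufb1, a complex I subunit, was at 95.5, 110 and 106 CPM in sham and 174, 187 and 132 CPM in operated kidneys (0.66, SE 0.230, adjusted p 0.807 by edgeR). mt-Rnr1, the small ribosomal RNA of the mitochondrion, was at 734, 823 and 708 and 1432, 1454 and 1071 CPM (0.81, SE 0.217). Both were above sham in each operated kidney and lowest of the 3 in kidney 9. The 37 proteasome subunits had a median of 0.10 (0.17 without kidney 9), with 25 positive and 12 negative.

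The genes with the smallest p-values were small, uniform differences outside the injury lists. Spink8, a serine protease inhibitor gene, was at 11.4, 13.1 and 9.52 CPM in sham and 17.9, 23.6 and 21.2 CPM in the anti-G-CSFR kidneys (log2 change 0.88, SE 0.149, 95% interval 0.55 to 1.2, unadjusted p 7.4e-05, adjusted p 0.8 by edgeR). 1110038B12Rik (0.81, SE 0.175), the glutathione transferase gene Gstm5 (0.67, SE 0.148), Rps28 and Itgb1bp1 (0.64, SE 0.146) followed. Among lower genes, Plod2, a collagen lysyl hydroxylase, was at 64.8, 65.1 and 70.1 and 47.7, 51.1 and 42.8 CPM (-0.50, SE 0.105, unadjusted p 0.000474), and Esr1, the oestrogen receptor alpha gene, at 26.3, 21.2 and 24 and 12.6, 16 and 14.1 CPM (-0.74, SE 0.160). Tmco4 (-0.37) and Sim2 (-0.64) were also among the lower genes. In each of these genes the groups were separate. In isotype IRI the log2 changes against sham were 0.63 for Spink8, 0.91 for Gstm5, 0.02 for Plod2 and -2.25 for Esr1. In anti-C5 IRI, against the same sham kidneys, they were 0.61, 0.67, -0.51 and -0.73 in that order.

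**Figure D5:**
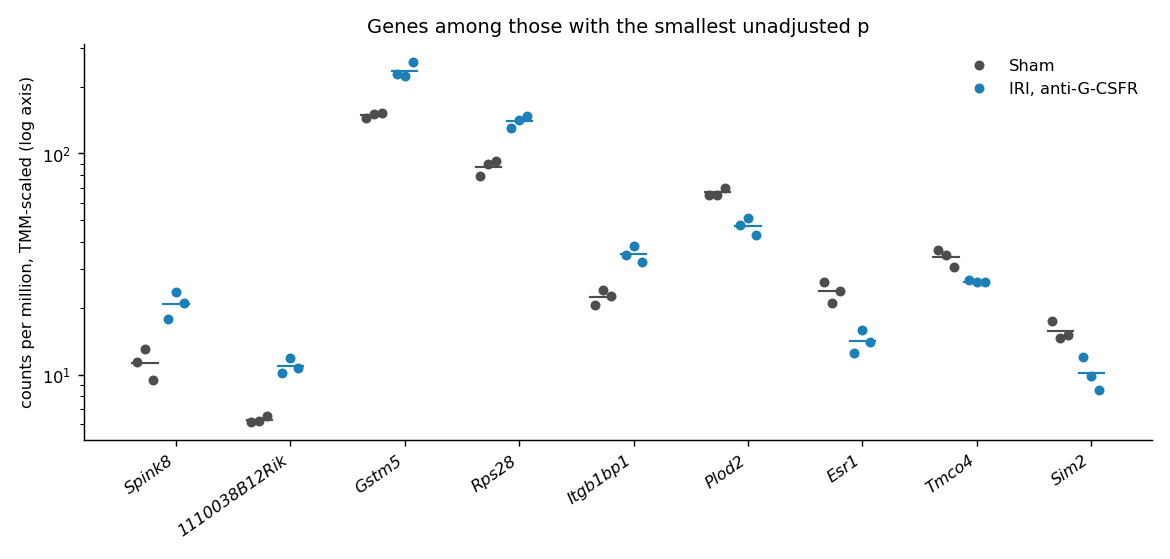
Level (TMM-scaled CPM, log axis) in each sham and anti-G-CSFR IRI kidney of 5 higher and 4 lower genes among those with the smallest unadjusted p, with lines at group means. The groups do not overlap in any gene shown, and each has an adjusted p of 0.8.

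The genes that varied most among the 3 operated kidneys were of another kind. By SD of log2 CPM over kidneys 7 to 9 the leading 10 were Ucp1, Cfd, Fgb, Cidea, Hp, Cox8b, Adipoq, Fgg, Timp1 and Fga. Ucp1, the uncoupling protein of brown fat, was at 34.4, 19.2 and 17.9 CPM in sham and 0, 31.7 and 23.8 CPM in kidneys 7, 8 and 9. Adipoq, which encodes the adipocyte hormone adiponectin, was at 5.56, 2.01 and 2.67 and 0.198, 7.01 and 14.1 CPM, and Cidea, a lipid droplet protein, at 7.31, 3.89 and 2.81 and 0.0661, 9.4 and 11.6 CPM. Kidney 7 was the lowest of the 6 in these 3 genes, and 4 of the 9 measured adipose genes were more than 2-fold lower there than in each of the other 5 kidneys. Not all members shared that gap: Fabp4 was at 50.7 CPM in kidney 7 against 61.4 to 79.6 CPM in sham. Summed without Pck1 the adipose genes, of which Lpl was the most abundant, came to 945 CPM in kidney 7, 949 in kidney 8, 692 in kidney 9 and 830 to 1186 CPM in sham. The mean of the 9 measured adipose genes, Lpl and Pck1 included, was -2.57 in kidney 7, 0.50 in kidney 8 and 0.83 in kidney 9. Hp, haptoglobin, which fat also makes, was at 3.22, 2.92 and 3.7 and 0.462, 17.5 and 32.5 CPM, with kidney 7 lowest and kidney 9 highest. The amount of attached fat was not measured separately.

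Traces of other tissues also differed by kidney. The urothelial genes Upk1b and Upk3a, which encode uroplakins of the lining of the renal pelvis, were at 2.35, 3.63 and 3.15 and 2.75, 1.56 and 3.7 CPM in sham and 2.91, 5.44 and 9.98 and 2.97, 5.59 and 8.62 CPM in kidneys 7, 8 and 9. Over 7 measured urothelial genes the list means were -0.06, 0.60 and 1.05. The haemoglobin gene Hbb-bs was at 11.9, 36.5 and 12.6 CPM in sham and 11.2, 34.8 and 11.5 CPM in operated kidneys, high in kidneys 2 and 8, with 5 measured erythrocyte genes between -0.85 and 0.81 in list mean over the 6 kidneys.

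Further lists had 0 called members and medians between -0.13 and 0.22, several of which turned sign without kidney 9. The medians were 0.10 for the interferon response (35 measured, -0.03 without kidney 9), 0.14 for endothelial activation (13 measured, -0.22 without), 0.09 for cell death (24 measured, -0.05 without) and 0.22 for iron and haem (16 measured, -0.12 without). The cell cycle (42 measured) went from -0.06 to 0.01, and the unfolded protein and integrated stress response (28 measured) from 0.04 to -0.04. Complement components (20 measured) went from 0.22 to 0.06 and endothelial identity (22 measured) from -0.10 to -0.21. The medians that moved less were 0.07 for complement receptors and regulators (9), 0.08 for p53 targets (23), -0.04 for NRF2 and antioxidant genes (27), -0.11 for hypoxia and glycolysis (26), 0.11 for the circadian clock (21) and -0.13 for renin-angiotensin (9). Within them, Cfi, the complement factor I protease, was at 3.69, 3.96 and 4.52 CPM in sham and 6.47, 4.85 and 9.23 CPM in operated kidneys (0.76, SE 0.276, and 0.50 without kidney 9), and Erg, an endothelial transcription factor, at 11.2, 13.8 and 11.8 and 15.5, 16.3 and 19.4 CPM (0.47, SE 0.133). Ace, the angiotensin-converting enzyme gene, was at 295, 256 and 313 and 246, 228 and 166 CPM (-0.43, SE 0.184, and -0.27 without kidney 9). The groups were separate in these 3 genes, each with an adjusted p of 0.8 or 0.807 by edgeR.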

How the data were processed

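Total RNA from 12 whole perfused kidneys was sequenced as strand-specific, single-end libraries, per the labels' protocols. The authors deposited raw read counts per Entrez gene; the submitters' processing notes name TopHat2 2.1.0, Bowtie2 2.2.5, featureCounts and build GRCm38.p4, and the strand setting of the counting is not given in the sources used here. Low genes had been removed before deposit. Of 13124 genes 13074 had a symbol in the RefSeq table (GRCm38.p6); gene positions are from GENCODE (GRCm38). The 50 rows without a symbol held 0.0811% of counts and were kept in the fit.

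The main test was edgeR 4.0.16 (R 4.3.3): TMM factors (0.93 to 1 in the 6 libraries), glmQLFit with the robust option on all 12 libraries in 4 groups (8 residual degrees of freedom), Benjamini-Hochberg adjusted p below 0.05. The common biological coefficient of variation was 16.4%. Chi-square per degree of freedom between replicate pairs within the sham and the anti-G-CSFR group was 11.3 to 47.4. None of these 6 libraries was therefore a repeat of another in its group. Intervals are 95%. p-values weigh a change against the spread between kidneys within the 4 groups, over all 12 libraries. In the anti-C5 group kidney 11 stood apart. It had 1507 CPM of Havcr1, against 31.7 and 14.5 CPM in the other kidneys of that group. For S100a9 the levels were 44.6 CPM against 3.39 and 5.49 CPM. That spread enters the SEs and p-values given for the anti-G-CSFR comparison. The script was tested on simulated data, with 50 genes changed by each of 4 sizes. It called 0% of those changed 1.25-fold, 18% at 1.5-fold, 76% at 2-fold and 90% at 4-fold, with 4 false calls. In that simulation both compared groups had the sham means except in the changed genes. Counts were drawn with the fitted spread of each gene, and no kidney was made to stand apart. These shares are therefore a check of the script and not the power of the real comparison. Alternatives used DESeq2 1.42.0, limma 3.58.1, other scalings and filters, the 6 libraries alone, and each of these 6 left out in turn.

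Lists (45, described by counts and medians) and groups were chosen with earlier results of these data known. Named genes were Csf3r, C5ar1, Havcr1, Lcn2 and Krt20, the 10 largest called changes each way (none existed), the 5 smallest p each way, from each list the 2 smallest p (or up to 4 called) and the largest change, and the 10 largest SDs over kidneys 7 to 9. Other genes in the text are list members or genes named after their values were seen. Some genes that this rule names are not reported here.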

Additional observations from a re-analysis of the deposited data

How the results depend on the processing

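No paired analysis was possible because the kidney numbers 1 to 12 are not shared between groups. The main test called 0 genes higher and 0 lower. With DESeq2 9 genes were higher, with limma-voom with sample weights 256 higher and 49 lower (2 and 1 by more than 2-fold), and with the 6 compared libraries alone 41 higher and 2 lower (1 lower by more than 2-fold). The cause of these differences was not tested, beyond fewer genes with an adjusted p in DESeq2. Every other alternative called 0, including each of the 6 compared libraries left out in turn (0 to 0 for each count). In those fits 288 to 944 genes had an unadjusted p below 0.05 by edgeR. No isotype or anti-C5 library was left out singly. Of 2066 values of 116 named genes under the 18 alternatives, 2006 kept their direction and side of the threshold. Reversals follow, as log2 changes, and their cause was not tested except where 1 library sets the value. With 1 library left out, values ranged for Fga -0.79 to 2.40, Fgb -0.48 to 4.98, Fgg -0.81 to 3.22, Lcn2 -0.23 to 2.5, Lrg1 -0.38 to 1.36, Akr1b7 -0.15 to 0.28, Hba-a2 -1.57 to 0.005, Pf4 -0.093 to 0.54, Tcf7 -0.28 to 0.091, Tfrc -0.28 to 0.027 and Ucp1 -1.02 to 0.22. Without kidney 9 the first 5 of these were lowest, and without kidneys 9 and 11 they were -0.79, -0.49, -0.81, -0.23 and -0.38. With limma-voom Adipoq was -0.27, Cfd -0.48, Cidea -1.13 and Cox8b -0.67. With sample weights these were -0.060, -0.20, -0.67 and -0.099, and Fga was -0.26, Fgg -0.018 and Lrg1 -0.058. With 3 kidneys a group, genes with few counts have wide intervals, and low neutrophil genes in particular rest on few reads.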
